A study of Aspergillus terreus with 6 samples.

Results

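A set of 105 genes of the filamentous fungus Aspergillus terreus was far more abundant in control libraries 1 and 3 than in control library 2 and the 3 libraries from cultures with raised zinc and iron, and no other gene with so large a difference was numbered within 3 of any of them. The genes were selected by measured values. With L as log2(CPM + 1), where CPM is a count per 1000000 counts of its library, each had a lowest L in controls 1 and 3 at least 1.5 above its highest L in the 4 other libraries, a difference called the margin here. Of the 10784 annotation-style identifiers in the files, 162 met that margin. For 105 of them, 64.8% of the 162 and 0.974% of all such identifiers, no other gene that met it lay within 3 identifier numbers. The remaining 57 had such a neighbour and formed 20 groups of up to 10 genes. A further 2 of the 896 features marked as new genes met the margin but carry no number in this order.

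All 6 libraries came from mycelium of the wild-type strain AT2022 on day 2 of shaken fermentation culture, in a series about metal ions and the fermentation of itaconic acid. The metal group (n = 3) is labelled as treated with ZnSO4·2H2O at 0.25 g/L and FeSO4·2H2O at 0.40 g/L. The control group (n = 3) is labelled as untreated and names 0.15 g/L and 0.16 g/L of the same salts, without saying whether the control medium held those amounts. The treatment protocol names taurine and no metal salt. The labels do not say whether samples within a group were separate cultures, so every spread given here is between libraries and may be technical.

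A. terreus is grown for itaconic acid, which it makes from the citric acid cycle intermediate cis-aconitate, and zinc and iron are cofactors of many fungal enzymes and regulators. In filamentous fungi the genes of a secondary metabolite pathway often lie side by side and are switched on together, whereas genes of most other pathways are scattered. The files give neither names nor products, and 0 of the 105 identifiers matched the 10551 genes of strain NIH2624 (assembly ASM14961v1), so no function is given to any of them. For the same reason 2 genes are printed by identifier, and the others are named by rank. It is also not known whether identifier numbers follow the genome.

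Library totals ran from 32607821 to 35124387 counts in the metal group and from 25097838 to 31981700 in the control group. Control 2 stood apart from its label. Its root mean square distance to the metal libraries was 0.36 to 0.41 on the log2(CPM + 1) scale, against 0.88 and 0.89 to controls 1 and 3. Metal libraries were 0.33 to 0.38 apart, and 0.76 to 0.87 from controls 1 and 3. Controls 1 and 3 were themselves 0.55 apart, wider than any of the distances among the metal libraries and control 2. Without the 162 genes past the margin, control 2 was 0.34 to 0.40 from the metal libraries and 0.77 and 0.79 from controls 1 and 3. Controls 1 and 3 were then still 0.55 apart. Fitted log2 fold changes of the named genes are given with all 6 libraries and without control 2.

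Most members were mid-level to abundant genes in controls 1 and 3 and low ones elsewhere. Their median level was 5.02, 4.78 and 5.27 CPM in metal libraries 1, 2 and 3, against 61.7, 4.65 and 42.9 CPM in controls 1, 2 and 3. Control 2 thus lay at the metal level and controls 1 and 3 far above it. Per length, the median was 2.57, 2.97 and 2.63 FPKM (fragments scaled by gene length and depth, the authors' values) in metal libraries 1, 2 and 3, and 31.1, 3.30 and 23.3 FPKM in controls 1, 2 and 3. All tested features had medians of 18.5 to 19.2 CPM in the metal libraries and 17.6 to 21.0 CPM in the controls. Ranked among these features, the median member was at percentile 29.96 by its metal mean, 27.9 by control 2 and 71.6 by the mean of controls 1 and 3. In mycelium sequenced in bulk, fewer cells with a transcript and less of it per cell cannot be told apart.

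Together the members held 0.582%, 0.350% and 0.622% of the counts of metal libraries 1, 2 and 3, against 3.47%, 0.427% and 3.61% in controls 1, 2 and 3. Their mean level in controls 1 and 3 was under 10 CPM in 13 members, from 10 to 100 CPM in 53, from 100 to 1000 CPM in 32 and above that in 7. Their metal mean was under 1 CPM in 18 and under 10 CPM in 70. Counting depth was ample on the high side, with 100 or more counts in both controls 1 and 3 for 102 members. The highest count among the 4 other libraries had a median of 244 per member and was never below 6, so 0 members had 3 counts or fewer throughout those libraries.

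**Figure D1:**
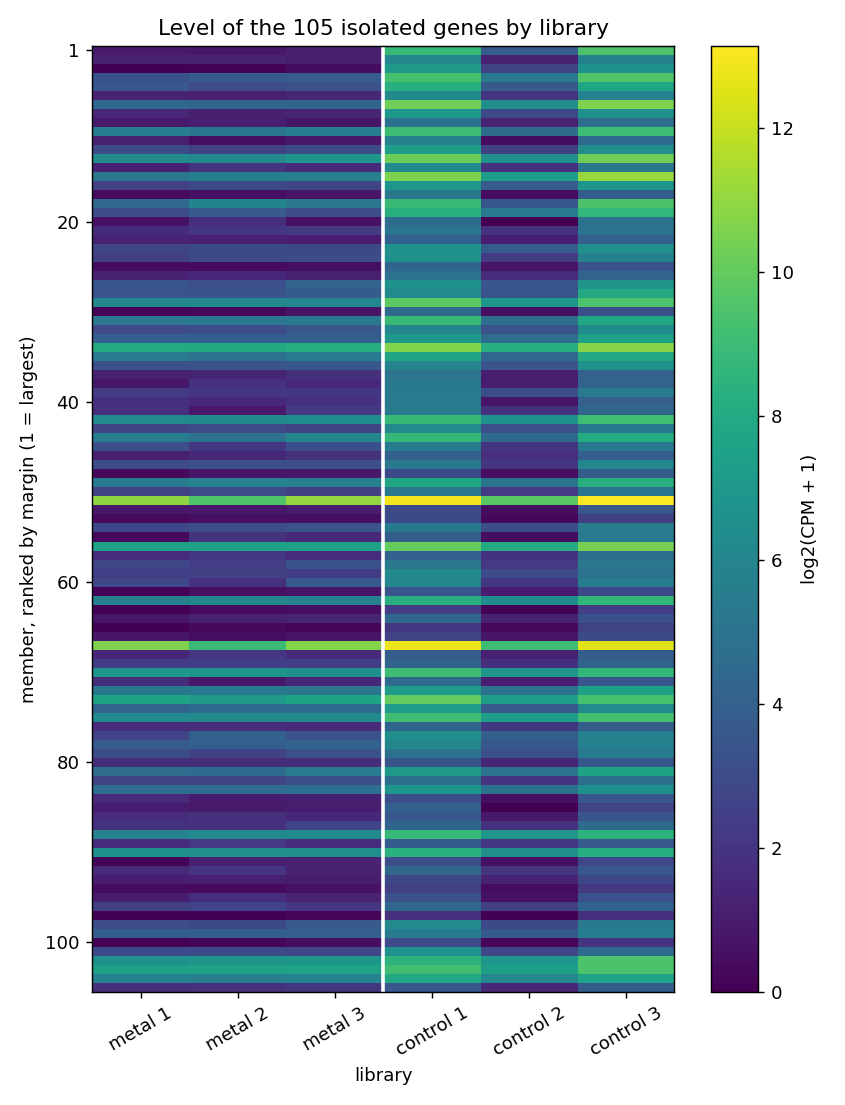
Colour gives log2(CPM + 1) of each of the 105 genes (rows, ranked by margin) in each library (columns, metal left of control). Controls 1 and 3 are brighter than the 4 other columns in every row by construction, and the metal libraries (medians 4.78 to 5.27 CPM) and control 2 (4.65 CPM) have a like shade.

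The size of the difference varied widely among the members. On the log2(CPM + 1) scale the metal mean minus the mean of controls 1 and 3 had a median of -2.66, with quartiles of -3.33 and -2.20 and extremes of -8.16 and -1.66. All 105 were at least 2-fold lower in metal on that scale, 90 at least 4-fold, 39 at least 8-fold and 15 at least 16-fold. The median over all tested features was -0.06. Margins were between 1.5 and 2 in 55 members, between 2 and 3 in 33, between 3 and 4 in 12 and above 4 in 5. These values chose the members and are a description of them.

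The largest margin, 5.02, belonged to Aterreus0G090340. It was at 0.938, 0.767 and 1.25 CPM in metal libraries 1, 2 and 3, and at 449.7, 12.9 and 711 CPM in controls 1, 2 and 3. Every control lay above every metal library, and control 2 was between them on the log scale. Behind these levels stood 31, 25 and 44 counts in the metal libraries and 14381, 386 and 17852 counts in the controls. The gene averaged 0.986 ± 0.246 CPM in the metal libraries and 391 ± 353 CPM in the controls (SD, n = 3 each). Its edgeR log2 fold change, metal over control, was -8.54 ± 1.42 (SE) with all 6 libraries. Without control 2 it was -9.10 ± 0.33 (SE), where controls 1 and 3 averaged 580 CPM. The rule put control 2 below controls 1 and 3, so the larger fold and smaller SE without it follow from the choice of genes.

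The next margins were 4.498 and 4.21. In the gene ranked second, metal libraries 1, 2 and 3 were at 1.36, 1.44 and 1.11 CPM and controls 1, 2 and 3 at 67.6, 1.27 and 54.1 CPM. Control 2 lay inside the metal range there. In the third gene, metal libraries 1, 2 and 3 were at 0, 0.0613 and 0.370 CPM and controls 1, 2 and 3 at 130, 4.71 and 104 CPM, so control 2 lay above all 3 metal libraries.

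Ranks 4 to 7 included more abundant genes. The fourth was at 9.08, 13.2 and 13.2 CPM in metal libraries 1, 2 and 3 and at 638, 38.6 and 762 CPM in controls 1, 2 and 3. The fifth was at 10.7, 6.93 and 8.68 CPM in the metal libraries and at 309.9, 12.4 and 213 CPM in the controls. Control 2 exceeded all 3 metal libraries in both. The sixth was at 1.36, 1.29 and 1.65 CPM in the metal libraries and at 76.3, 2.87 and 56.0 CPM in the controls. The seventh was at 19.7, 18.5 and 18.1 CPM in the metal libraries and at 1263, 93.0 and 1519 CPM in the controls. The metal libraries of the seventh gene lay close together, and control 2 was several times higher.

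The eighth was at 1.72, 1.23 and 1.68 CPM in metal libraries 1, 2 and 3 and at 127, 6.42 and 96.6 CPM in controls 1, 2 and 3. The ninth was at 0.908, 1.17 and 0.655 CPM in the metal libraries and at 28.9, 1.37 and 25.2 CPM in the controls. The tenth was at 47.3, 33.0 and 46.6 CPM in the metal libraries and at 531, 24.3 and 532 CPM in the controls. The tenth is the only one of these 10 genes in which control 2 was below all 3 metal libraries.

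**Figure D2:**
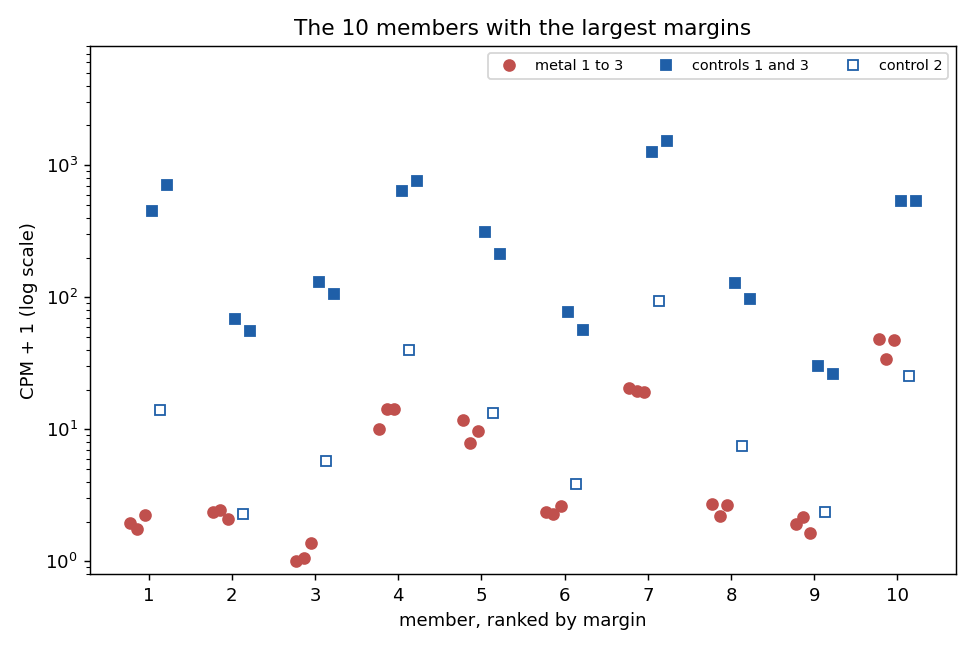
CPM + 1 on a log axis for the 10 members with the largest margins, with one point per library (filled circles metal, filled squares controls 1 and 3, open squares control 2). Controls 1 and 3 lie near each other, and control 2 is above all 3 metal libraries in 8 of the 10 genes.

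The most abundant member was Aterreus0G002020. It was at 2016, 739 and 2039 CPM in metal libraries 1, 2 and 3 and at 7941, 888 and 8997 CPM in controls 1, 2 and 3. Metal libraries 1 and 3 were above control 2 and metal 2 was below it, so the labelled groups overlapped. It averaged 1598 ± 744 CPM in the metal libraries and 5942 ± 4408 CPM in the controls (SD, n = 3 each), with an edgeR log2 fold change of -1.82 ± 0.79 (SE). Without control 2 the log2 fold change was -2.32 ± 0.43 (SE), and controls 1 and 3 averaged 8469 CPM. Here too the larger fold and smaller SE follow from the choice of genes. Per length this gene was at 1846, 643 and 1766 FPKM in the metal libraries and 7239, 815 and 8181 FPKM in the controls.

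The second most abundant member had the same order of libraries below controls 1 and 3. It was at 1550, 494 and 1681 CPM in metal libraries 1, 2 and 3, against 6850, 532 and 5767 CPM in controls 1, 2 and 3. The ratio of the most abundant member to it stayed between 1.21 and 1.497 in the metal libraries and between 1.16 and 1.67 in the controls. The implied lengths of both, 1098 and 1073 bases, were close. Whether they share sequence and therefore reads was not tested, since the files hold no sequence. This pair made up 61.2%, 35.2% and 59.8% of the members' counts in metal libraries 1, 2 and 3 and 42.6%, 33.2% and 40.9% in controls 1, 2 and 3. The low share of the whole set in metal 2 rests on them: without the pair the members held 0.226%, 0.227% and 0.250% of the counts in the metal libraries and 1.99%, 0.285% and 2.13% in the controls.

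The third most abundant member, also the 15th by margin, was at 36.01, 48.2 and 51.2 CPM in metal libraries 1, 2 and 3 and at 1509, 159 and 2217 CPM in controls 1, 2 and 3. The fourth was at 261, 252 and 288 CPM in the metal libraries and 1578, 297 and 1807 CPM in the controls. The fifth by level is the gene seventh by margin described above. The sixth was at 181, 183 and 181 CPM in the metal libraries and 1058, 275 and 1406 CPM in the controls. Control 2 lay above all metal libraries in each of these 4 genes, by a wide distance in the third and the fifth.

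The seventh by level was at 80.3, 72.6 and 119 CPM in metal libraries 1, 2 and 3 and 1183, 96.4 and 1238 CPM in controls 1, 2 and 3. The eighth was at 193, 134 and 195 CPM in the metal libraries and 1015, 164 and 645 CPM in the controls. Control 2 fell within the metal range in both. The ninth was at 69.5, 69.1 and 66.3 CPM in the metal libraries and 904, 121 and 684 CPM in the controls, with control 2 above that range. The tenth is the one ranked 4 by margin.

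At the edge of the rule the difference was still several-fold. The 3 members just inside had margins of 1.508, 1.506 and 1.506. The lowest of these was at 2.57, 2.61 and 3.22 CPM in metal libraries 1, 2 and 3 and at 10.98, 1.91 and 13.9 CPM in controls 1, 2 and 3. The next was at 56.6, 48.0 and 58.4 CPM in the metal libraries and 233, 65.9 and 189 CPM in the controls, and the one after it at 174, 195 and 189 CPM in the metal libraries and 558, 171 and 673 CPM in the controls. The 3 identifiers just outside had margins of 1.494, 1.490 and 1.485. The first of them was at 7.87, 10.7 and 10.5 CPM in the metal libraries and 32.0, 3.68 and 49.7 CPM in the controls, and had a gene past the margin within 3 numbers. The second was at 2.15, 1.72 and 1.05 CPM in metal libraries 1, 2 and 3, against 8.10, 2.24 and 9.44 CPM in controls 1, 2 and 3. The last of them was at 32.7, 47.4 and 62.0 CPM in the metal libraries, against 175, 39.9 and 190.0 CPM in the controls. No gap in the values separates the members from the genes next in line.

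Controls 1 and 3 were within 2-fold of each other in most members but not in all. Control 3 was above control 1 in 44 of 105 members, against 52.8% of all tested features. The difference, control 3 minus control 1 in L, had a median of -0.05 and quartiles of -0.54 and 0.28, while all tested features had quartiles of -0.31 and 0.35. Control 1 was at least 2-fold above control 3 in 15 members (14.3%), where 4.2% of all tested features were. Control 3 was at least 2-fold above control 1 in 2 members, 1.90%, beside 2.67% of all tested features. Among the 57 genes with a like neighbour, control 1 was that far above control 3 in 7 and that far below it in 2. With a single library on each side there is no test of this difference.

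The widest split between these controls was in the member ranked 101st by margin. It was at 6.81, 6.75 and 5.84 CPM in metal libraries 1, 2 and 3 and at 98.0, 5.88 and 21.4 CPM in controls 1, 2 and 3. The 28th by margin was split the other way, at 9.44, 9.69 and 12.6 CPM in the metal libraries and 77.0, 9.53 and 239 CPM in the controls. The 55th was at 0.242, 2.82 and 1.88 CPM in the metal libraries and 13.8, 0.401 and 42.9 CPM in the controls. In these 3 genes the 4 other libraries were all below both controls 1 and 3, as the rule requires of every member.

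Among the 3 metal libraries, metal 3 was the highest in 52 members, metal 2 in 37 and metal 1 in 16. Over all tested features those shares were 26.6% for metal 3, 40.8% for metal 2 and 32.6% for metal 1. Metal 1 was the lowest in 47 members (44.8%), beside 36.9% of all tested features. The range over the metal libraries had a median of 0.42 in L, against 0.32 over all tested features, and reached 1 or more in 12 members (11.4%), beside 2.79% of all tested features. Among the 57 genes with a like neighbour, the range reached 1 or more in 16. In the second most abundant member this range, 1.77, came close to its margin of 1.78. Metal 3 also had the highest total count of all libraries, and the part of depth in this order was not tested. The background was not matched to the members' lower level in the metal libraries, and the part of level in the range was not tested.

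The rule treats control 2 and the metal libraries alike, so their order did not choose the members, and it is described here with no test. The metal mean minus control 2 in L had a median of 0.05 over the members and 0.04 over all tested features. Its spread was wider in the members, with quartiles of -0.32 and 0.42 against -0.12 and 0.22. In control 2 and the metal libraries the members had median levels of 4.65 to 5.27 CPM, against 17.6 to 19.2 CPM over all tested features. The background was not matched for level, and the part of level in the wider spread was not tested. Control 2 was below all 3 metal libraries in 34 members (32.4%), close to the 32.1% of all tested features. It was above all 3 in 31 (29.5%), against 20.6% of all tested features, but with TMM-scaled values (trimmed mean of M-values) that background was 26.2% and the members' count again 31.

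A 2-fold difference between metal and control 2 was uncommon in either direction. The metal mean was at least 2-fold above control 2 in 5 members (4.76%), where 0.66% of all tested features were. It was at least 2-fold below control 2 in 10 members (9.52%), where 0.412% were. These backgrounds were not matched for level. Among the 57 genes with a like neighbour, the metal mean was that far above control 2 in 15 and that far below it in 3. Of the 10 members with metal at least 2-fold below control 2, 8 were among the 20 members with the largest margins. The 3 with the lowest metal mean relative to control 2 were those ranked 1, 3 and 7. At the other end, the member ranked 18 by margin was at 19.3, 60.2 and 35.7 CPM in metal libraries 1, 2 and 3 and at 474, 11.3 and 713 CPM in controls 1, 2 and 3. The member ranked 47 was at 6.96, 8.31 and 8.31 CPM in the metal libraries and at 37.4, 3.28 and 63.2 CPM in the controls, and next came the second most abundant member. In the first and the second of these genes control 2 was the lowest of all 6 libraries. As a share of the mean of controls 1 and 3, the metal mean had a median of 10.7% over the members, with a range from 0.123% to 30.3%, and control 2 a median of 9.51%, with a range from 0 to 31.2%.

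**Figure D3:**
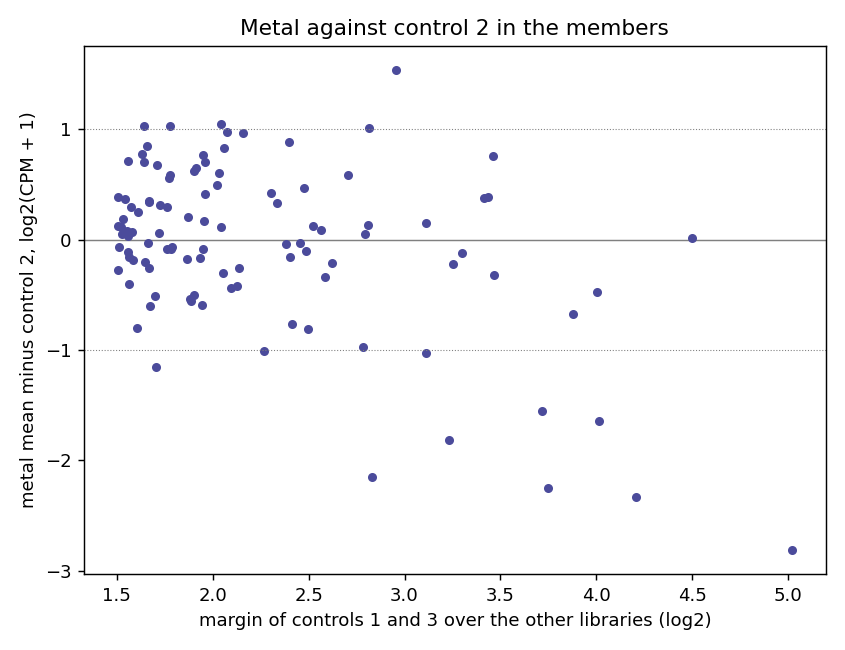
Each point is a member, with its margin on the x axis (log2) and the metal mean minus control 2 on the y axis, in log2(CPM + 1). Most points lie between the dotted lines at 2-fold, and 8 of the 10 points at or below the lower one are among the 20 largest margins.

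The study's comparison of metal with control, fitted over all genes with edgeR's quasi-likelihood test, called 0 of the 103 members that passed the low-count filter lower in metal, where 0% of the 9698 tested features were called (lowest Benjamini-Hochberg adjusted p = 0.494). At an unadjusted p under 0.05, 95 members and 655 of all tested features were lower, and 180 features were higher. The fitted log2 fold change, metal over control, was negative in all 103 members, with a median of -2.62 against -0.01 over all tested features. DESeq2 called 59 members lower, beside 1.3% of the features it tested. Without control 2, edgeR called all 105 members lower in metal, with a median log2 fold change of -3.14 and beside 10.2% of the tested features. The rule used these same libraries, so nothing about the members is read from these counts.

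With control 2 as the one control, the same edgeR fit compares the metal group with a library that the rule placed on the metal side. It takes its spread from the 3 metal libraries, and the lone control is assumed to vary as they do. It called 5 of 103 members lower in metal, or 4.85%, beside 0.0698% of the 10028 tested features, 7 genes. It called 0 members higher, beside 0.0199% of the tested features. At an unadjusted p under 0.05, 19 members were lower, beside 277 of all tested features, and 405 features were higher. Aterreus0G090340 was one of the 5 called, at a log2 fold change of -3.74 ± 0.33 (SE), the largest among them. The others were ranked 7, 15, 19 and 75 by margin, with log2 fold changes of -2.35, -1.86, -2.28 and -1.21. The fit was chosen after seeing the data, has a single control library and uses values that also entered the rule, so these counts are a description and nothing is read from them.

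Along the identifier numbers the members were spread over the whole range, from 161 to 10611 of 10784. Each stretch of 1000 numbers held between 6 and 16 members, where an even spread gives 9.74. The fullest stretch was 6001 to 7000 with 16 members, followed by 8001 to 9000 with 14, and the emptiest were 1001 to 2000 and 7001 to 8000 with 6 each. The 57 genes with a like neighbour were distributed otherwise, with 15 in 5001 to 6000, where 9 members lay, and 0 in the first 2000 numbers, where 13 members lay. By definition these 57 genes lie in groups of neighbours, so genes of a group are counted together and the counts are not of 57 separate places. The number of tested identifiers in a full stretch ran from 808 to 900.

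**Figure D4:**
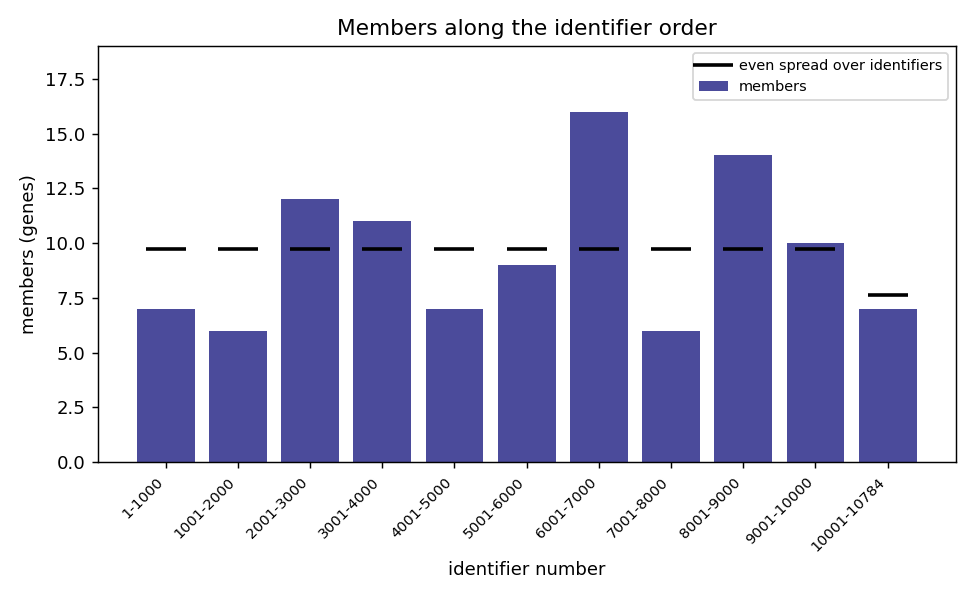
Bars give the number of members in each stretch of 1000 identifier numbers (784 in the last), and short black lines the number that an even spread over all identifiers gives. Counts run from 6 to 16 around 9.74, and every stretch holds members.

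Consecutive members were a median of 64.5 numbers apart, with quartiles of 20 and 145.5, and at most 484 apart. Of 104 consecutive pairs, 14 were within 10 numbers of each other, where placement at random with more than 3 numbers between members gives 6.88 on average. Within 20 numbers there were 27 pairs, against 15.9, and within 50 numbers 43, against 38.3. These averages carry no spread and are not a test. Short of the 3 numbers that the rule bars, close pairs of members were thus more frequent than that average. The nearest gene of the 20 groups was a median of 129 numbers away, and 9 members had one within 20 numbers. For these 2 values no average under random placement was computed, so they are not read as near or far.

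The identifiers directly beside a member also tended to be higher in controls 1 and 3. Of the 174 tested ones at 1 number away, 89 (51.1%) had controls 1 and 3 above all 4 other libraries, against 28.6% of all 8966 tested annotated identifiers under the margin. At 2 and 3 numbers away the share was 30.1% and 29.4%, and at 10 and 50 numbers away 31.7% and 28.8%. The share at 1 number away was the highest over these 5 distances, a description with no test. The median difference, mean L of controls 1 and 3 minus that of the 4 others, was 0.45 at 1 number, 0.17 at 2 and 0.11 at 3, beside 0.07 over all such identifiers. With TMM scaling the share at 1 number was 46.0%, beside 24.3%. Within 3 numbers of a member the rule itself bars any gene past the margin of 1.5. At 10 and 50 numbers and in the background such genes were left out of the comparison.

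The share exceeded 28.6% on both sides of the members, at 46.6% of 88 identifiers before them and 55.8% of 86 after them. It was 59.6% of 94 beside members at or above the median level and 41.3% of 80 beside the less abundant members. By member, 20 of the 74 with a tested identifier on both sides had controls 1 and 3 above the other libraries in both, 34 in one and 20 in neither. A margin of 1 or more was reached within 3 numbers by some identifier beside 22 members. No like count was made around other identifiers, so 22 is not read as high or low. Of the tested identifiers, 7.47%, 2.45% and 3.95% reached a margin of 1 or more at 1, 2 and 3 numbers away. At 10 and 50 numbers away 3.59% and 3.53% did, beside 1.84% of all under the margin of 1.5. The shares at 2 and 3 numbers were thus near those farther off, and the share at 1 number was the highest. Gene positions and the strand setting of the counting are not known, and whether reads shared between overlapping genes contribute was not tested.

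**Figure D5:**
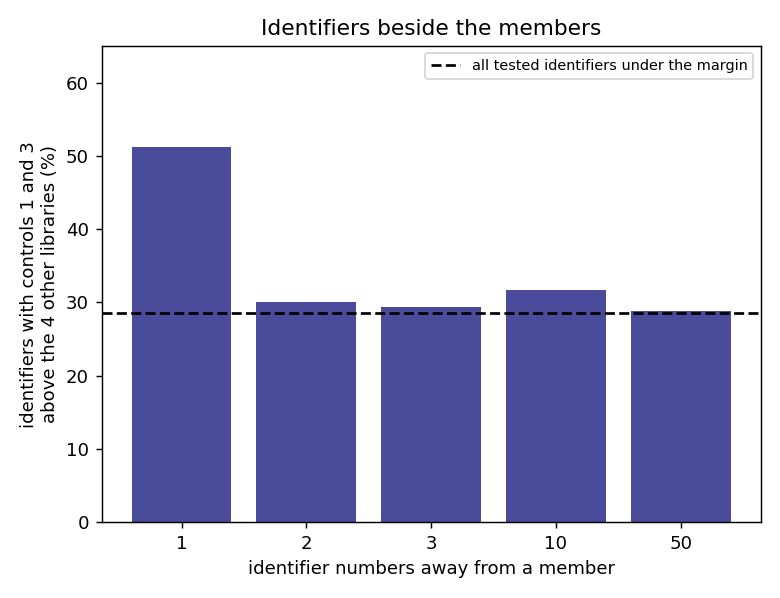
Bars give the percentage of tested identifiers with controls 1 and 3 above all 4 other libraries, by their distance from a member in identifier numbers, and the dashed line the same over all tested annotated identifiers under the margin (28.6%). The bar at 1 number away stands at 51.1%, and those from 2 to 50 numbers away between 28.8% and 31.7%.

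The length implied by counts and FPKM, which the rule did not use, had a somewhat lower median in the members than over all tested features, with widely overlapping quartiles. It had a median of 1542 bases with quartiles of 1056 and 2235 in the members, and a median of 1716 bases with quartiles of 1122 and 2570 over the 9587 tested features with a value. The 57 genes with a like neighbour had a median of 1802 bases. Those 57 genes were also more abundant in controls 1 and 3, with a median of 88.3 CPM against 51.2 CPM in the members, and had a median margin of 2.65 against 1.96. The values chose both sets, and no test of these differences was made.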

How the data were processed

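Whole-number counts per gene and FPKM values of 6 libraries were used as the authors deposited them. TopHat2 and DESeq are named in the submitters' processing notes; the counting program, build, annotation, strand setting and FPKM method are, in the sources used here, not given. No column belonged to another sample. CPM was computed from column sums, L with a pseudocount of 1. Implied length is the median over libraries with 20 or more counts of count divided by FPKM and by the total count, scaled to bases, and assumes that FPKM was scaled by total counts.

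Counts were fitted with edgeR 4.0.16 in R 4.3.3 (filterByExpr, TMM, robust quasi-likelihood F test, metal over control, no block), with Benjamini-Hochberg adjustment over all tested genes and a threshold of 0.05; SE came from the fold change and F. The procedure and the member rule were tested on simulated data. DESeq2 1.42.0, other scalings, filters, a replicate block and left-out libraries were alternatives. Precision on the low side is limited by counts.

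The members, and the rules applied to them, were chosen with earlier results of these data known. By rule, printed genes were the member with the largest margin and the most abundant one by identifier, and by rank the 10 largest margins, the 10 highest levels, the 3 on either side of the margin and the extremes between controls and against control 2. The fit with control 2 alone, the neighbours and the order of libraries were chosen after seeing the data. Same-numbered metal and control libraries had deviations from their group means correlated at 0.067, 0.16 and 0.17. Those with unlike numbers had correlations from -0.29 to 0.23. These values cannot settle whether a number marks a pair, and the main fit used no pairing.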

Additional observations from a re-analysis of the deposited data

How the results depend on the processing

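With the labelled groups, edgeR called 0 genes and 0 members lower in metal under RLE and total-count scaling, without the low-count filter, with the replicate block (0 of each, median member log2 fold change -2.15) and without any single library other than control 2. Leaving out 1 library gave 0 to 1009 genes and 0 to 105 members, both upper values without control 2. DESeq2 called 136 genes and 59 members lower; the cause was not tested. With control 2 as the one control, chosen after seeing the data, 7 genes and 5 members were lower, the members' median log2 fold change turned to 0.047, against -2.62, and that of Aterreus0G002020 to 0.81, as the construction leaves out the libraries that define the members. In the other fits that median ran from -3.14 to -2.03. The number of members was 66 with a pseudocount of 5, which shrinks low genes, 197 at a margin of 1 and 52 at a margin of 2. It was 91 with TMM scaling (89 shared with the 105), 95 with FPKM (87 shared), 155 with a pseudocount of 0.1 (94 shared), 111, 88 and 74 with isolation windows of 1, 5 and 10 numbers, and 113 when the margin was taken over the metal libraries alone (103 shared). With TMM scaling, control 2 was below all metal libraries in 31 members, beside 27.0% of all tested features, and above them in 31, beside 26.2%. Control 1 was at least 2-fold above control 3 in 15 members, beside 4.45% of all tested features. Of the 174 tested identifiers beside members, 80 (46.0%) leaned toward controls 1 and 3, beside 24.3% of all tested annotated identifiers under the margin.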
